A study of Rattus norvegicus with 21 samples.

Results

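A set of 10 genes used to mark astrocytes were followed through the dentate gyrus of the rat: Gfap, Aldh1l1, Aqp4, Gja1, Gjb6, S100b, Ntsr2, Aldoc, Glul and Fgfr3. A gene was measured where a probe set was annotated to its symbol alone, and of several such probe sets the brightest on average was to be used. By that rule 9 of the 10 genes were measured, each by 1 probe set, among 10804 genes tested. Glul, the glutamine synthetase of astrocytes, had no probe set named in the annotation used here, so its level was not analysed here. All animals were wild type male Wistar rats, 2 months old by the labels, with 3 animals in each of 6 groups. The agomelatine, fluoxetine, imipramine and tianeptine groups were exposed to mild, unpredictable stressors over 6 weeks and were injected with the drug every day, into the peritoneum, during the last 2 of them. Agomelatine was given at 40 mg/kg in hydroxyethylcellulose, fluoxetine at 10 mg/kg in water, and imipramine and tianeptine at 10 mg/kg in saline. The stress group had the same stress and no drug, and the control group had neither. The protocols in the labels describe injections for the drug groups only, so drug, vehicle and injection cannot be told apart in a comparison with stress. Each control animal was run on 2 arrays, which were averaged, so 21 arrays gave values for 18 animals.

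Astrocytes take up glutamate and potassium released by neurons, move water at the vessel wall, store glycogen and are joined to each other by gap junctions. In the dentate gyrus, radial glia-like stem cells of the subgranular zone also make Gfap and several other astrocyte genes. Gfap encodes the intermediate filament of astrocytes and S100b a calcium-binding protein. Aldh1l1 encodes an enzyme of folate metabolism and Aldoc a glycolytic aldolase. Aqp4 is the water channel of the end feet, while Gja1 and Gjb6 are connexins of astrocyte gap junctions. Ntsr2 is a neurotensin receptor that in the rodent brain is made largely by astrocytes, and Fgfr3 is a receptor for fibroblast growth factors. The values are log2 expression values after RMA, a method that corrects background, equalises array distributions and combines a probe set's probes into 1 value. A difference of log2 values is the first-named group minus the second, with its standard error (SE), and the level of 1 gene was not set against that of another because probe sets differ in brightness. In bulk tissue, fewer cells of a type and less RNA per cell cannot be told apart. Precision rests on the 3 animals in each group.

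The words rose and fell are used for genes with an adjusted p under 0.05 in limma, where the adjustment runs over all genes tested. By the F test over the 6 groups, Ntsr2 differed (adjusted p = 0.0427) and the other 8 measured genes did not pass, with adjusted p = 0.140 for Aldh1l1 and 0.232 to 0.662 for the rest. This is 1 of 9, where 6.76% of all genes tested passed. The Ntsr2 call was lost in 13 of 18 fits that left out 1 animal each, among them those without any of the agomelatine, imipramine or tianeptine animals in turn.

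Agomelatine against stress was the comparison in which 2 markers were called. Ntsr2 and Aldh1l1 fell in agomelatine animals, and the other 7 measured markers had lower means there than in stressed animals without passing the test. The 2 calls among 9 markers stand beside 10.8% of all genes called in this comparison. The median difference of the 9 markers was -0.18, against -0.025 over all genes tested.

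Ntsr2 read 9.90, 10.03 and 9.82 in the agomelatine animals, against 10.10, 10.20 and 10.44 in the stressed animals. Every agomelatine animal lay below every stressed animal. The mean was 9.92 ± 0.11 with agomelatine and 10.25 ± 0.18 under stress (SD, n = 3 each), and Ntsr2 fell by 20.2% (log2 difference -0.33 ± 0.08 SE, adjusted p = 0.0171). Aldh1l1 read 8.71, 8.75 and 8.62 with agomelatine, against 8.89, 8.96 and 8.96 under stress. These groups did not overlap either. The mean was 8.69 ± 0.07 with agomelatine and 8.93 ± 0.04 under stress (SD, n = 3 each), and Aldh1l1 fell by 15.3% (log2 difference -0.24 ± 0.06 SE, adjusted p = 0.0186). Both calls ended without agomelatine 3, where adjusted p was 0.0553 for Ntsr2 and 0.0564 for Aldh1l1, and without stress 3, where it was 0.0872 for Ntsr2 and 0.0604 for Aldh1l1. The Aldh1l1 call also ended without stress 2 (adjusted p = 0.0676), and both ended when agomelatine and stress were fitted alone, with adjusted p = 0.113 for Ntsr2 and 0.153 for Aldh1l1.

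The promoters of these 2 genes are shown because they carry the calls. They come from RefSeq on assembly GRCr8, from 250 bases before to 50 bases after the gene start, on the + strand. Capitals mark a match to the STAT motif TTCNNNGAA on either strand. The Ntsr2 window is chr6:45152845-45153144 and the Aldh1l1 window chr4:124616970-124617269.
Ntsr2: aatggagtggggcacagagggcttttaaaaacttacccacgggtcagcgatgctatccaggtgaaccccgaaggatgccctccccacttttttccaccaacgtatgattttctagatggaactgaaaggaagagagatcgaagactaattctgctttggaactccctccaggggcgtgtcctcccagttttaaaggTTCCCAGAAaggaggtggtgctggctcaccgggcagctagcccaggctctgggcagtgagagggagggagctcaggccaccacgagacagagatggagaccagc
Aldh1l1: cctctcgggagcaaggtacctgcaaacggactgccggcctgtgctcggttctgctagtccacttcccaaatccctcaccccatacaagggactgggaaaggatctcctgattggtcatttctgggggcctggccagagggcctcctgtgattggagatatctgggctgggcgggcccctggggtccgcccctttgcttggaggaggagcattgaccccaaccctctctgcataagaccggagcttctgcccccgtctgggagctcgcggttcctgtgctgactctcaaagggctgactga
The Ntsr2 window holds 1 match to TTCNNNGAA, and 8.87% of the 33469 windows in the table hold it. The Aldh1l1 window holds none of the 4 motifs searched, which were also ACAAAG (SOX), TTGGC (NFI) and ACANNNTGT (glucocorticoid receptor core), on both strands. The 10 markers have 13 windows in the table, since Aqp4, Gjb6 and Glul have 2 each. The SOX letters were found in 2 of the 13 (Aqp4 and Gjb6), against 18.8% of all windows, and the NFI letters in 4 of the 13 (Gjb6, S100b, Glul and Fgfr3), against 45.8%. The glucocorticoid receptor core was found in 1 of the 13 (Glul), against 6.86% of all windows. The STAT motif was likewise found in 1 of the 13 (Ntsr2), against 8.87%.

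Among the metabolic and structural markers, Aldoc read 12.65, 12.73 and 12.44 in agomelatine animals, against 12.75, 12.79 and 12.89 in stressed animals. The groups did not overlap, but Aldoc missed the threshold (difference -0.20 ± 0.07 SE, adjusted p = 0.0573). With Ntsr2 and Aldh1l1 this makes 3 of 9 markers whose agomelatine animals all lay below the stressed animals, beside 15.9% of all genes. Gfap read 11.54, 11.40 and 11.13 with agomelatine, against 11.46, 11.62 and 11.55 under stress, and the groups overlapped (difference -0.19 ± 0.13 SE, adjusted p = 0.373). S100b differed by -0.10 ± 0.07 (SE, adjusted p = 0.349).

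Among the channels and receptors, Aqp4 read 12.24, 12.31 and 12.06 with agomelatine, against 12.47, 12.30 and 12.36 under stress. Its difference was -0.18 ± 0.07 (SE, adjusted p = 0.109), with 1 agomelatine animal above the lowest stressed animal. The connexins differed by -0.18 ± 0.10 for Gja1 (SE, adjusted p = 0.280) and -0.09 ± 0.11 for Gjb6 (SE, adjusted p = 0.650). Fgfr3 differed by -0.14 ± 0.11 (SE, adjusted p = 0.429). The 95% intervals of the uncalled genes were wide, from -0.45 to 0.08 for Gfap and from -0.32 to 0.14 for Gjb6, so these data do not show that they were alike.

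**Figure D1:**
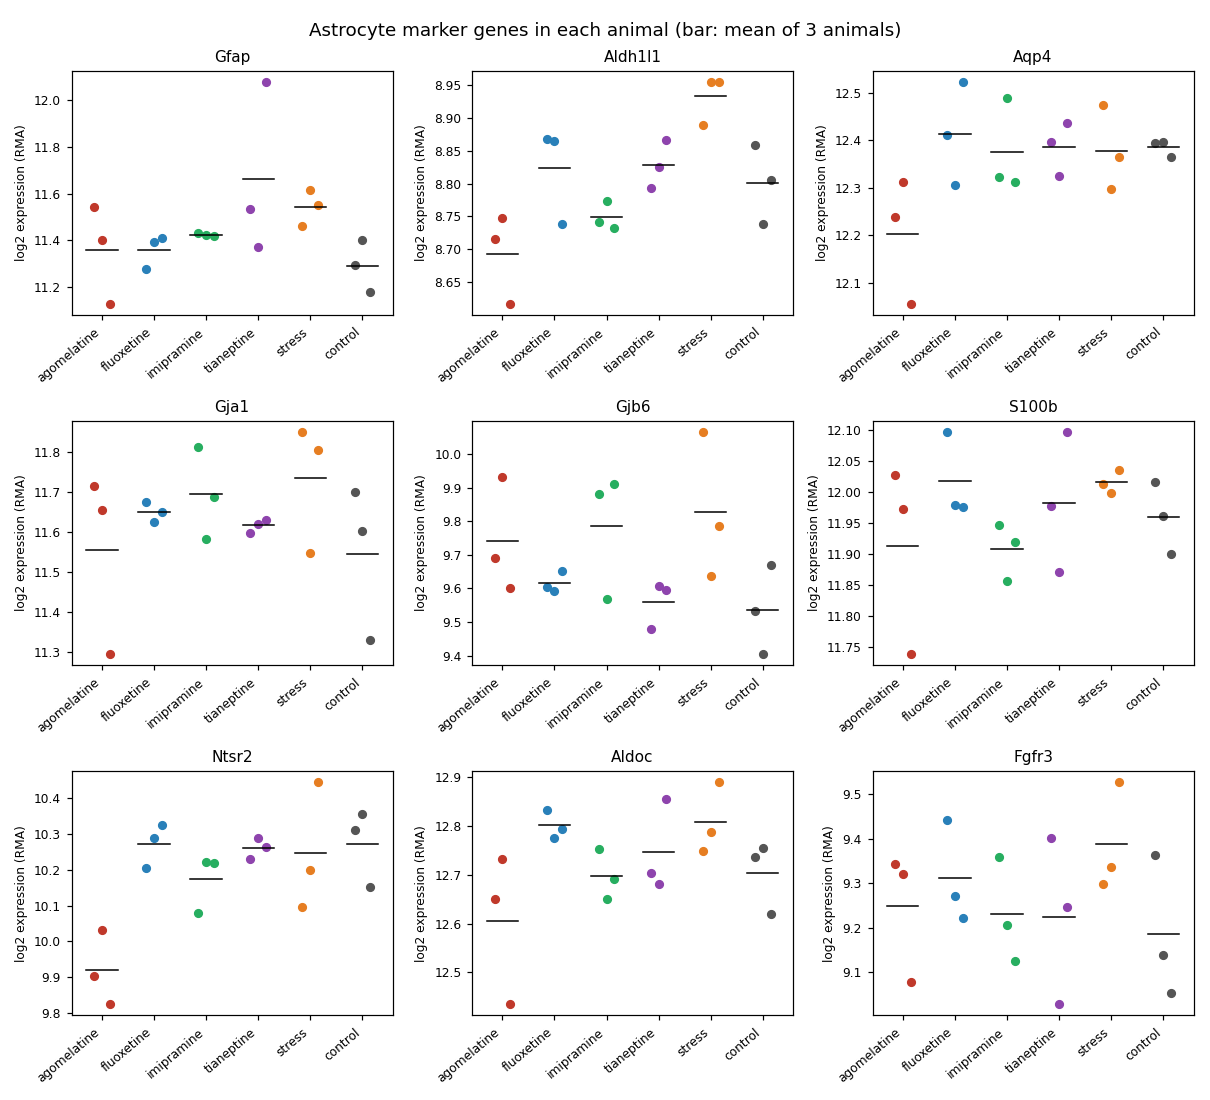
Log2 expression of the 9 measured astrocyte markers (y axes, scales differ) in each of 18 animals, by group (x axes); points are animals and bars are means of 3. The agomelatine points of Ntsr2 (9.82 to 10.03) lie below those of the other 15 animals, and the stress points of Aldh1l1 (8.89 to 8.96) lie above those of the other 15.

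**Figure D2:**
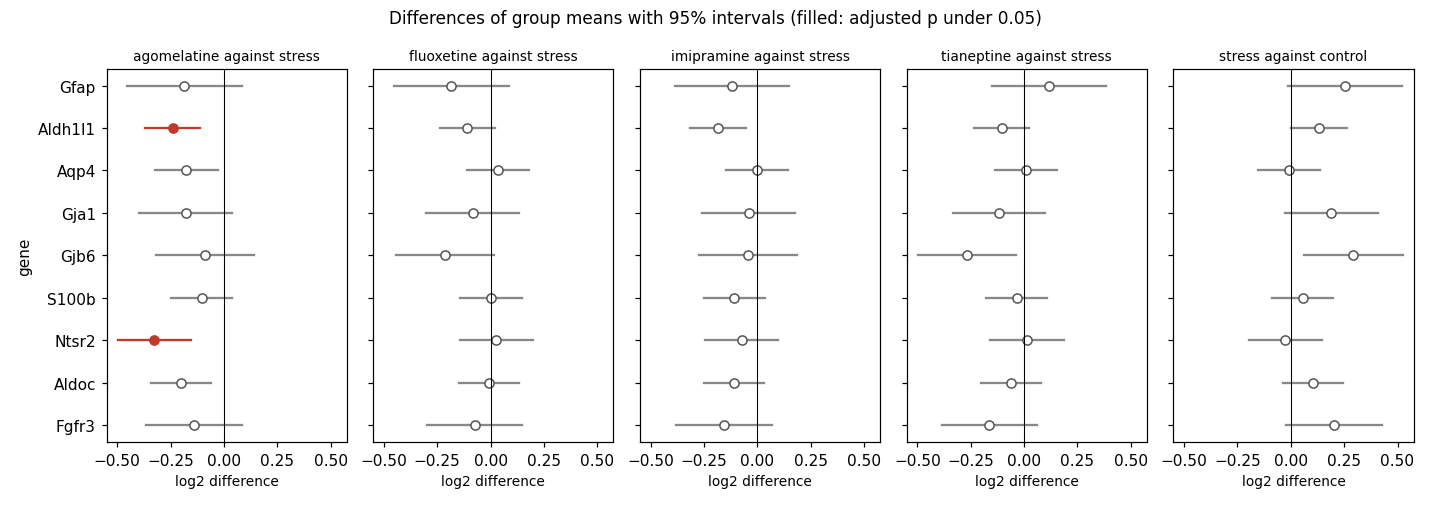
Log2 differences of group means (x axes) for the 9 markers (y axis) in 5 comparisons; lines are 95% intervals and filled points have an adjusted p under 0.05. Only Ntsr2 (-0.33) and Aldh1l1 (-0.24) with agomelatine against stress are filled.

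Agomelatine 3 had the lowest value of all 18 animals for 7 of the 9 markers, the exceptions being Gjb6 (control 2) and Fgfr3 (tianeptine 2). Without it, all 9 differences from stress stayed below 0, and their median was -0.071. The spread between animals was also larger with agomelatine, where the median SD of the markers was 0.153, against 0.069 to 0.107 in the other groups, and that of all genes tested 0.114, against 0.063 to 0.085. A common spread was fitted to all groups.

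Ntsr2 was the marker that set agomelatine apart from more than stress. Its 3 agomelatine animals (9.82 to 10.03) lay below all 15 others (10.08 to 10.44), which 4.84% of all genes tested did. Against control, Ntsr2 fell (difference -0.35 ± 0.08 SE, adjusted p = 0.0120, where 9.59% of all genes were called). The control animals read 10.31, 10.36 and 10.15, against which no agomelatine animal overlapped. Against fluoxetine (10.20, 10.29 and 10.32) Ntsr2 fell by 0.35 ± 0.08 on the log2 scale (SE, adjusted p = 0.0101), with 11.8% of all genes called. Against tianeptine (10.23, 10.29 and 10.26) it fell by 0.34 ± 0.08 (SE, adjusted p = 0.0113), with 13.5% of all genes called. Against imipramine (10.08, 10.22 and 10.22) the difference of -0.25 ± 0.08 missed the threshold (SE, adjusted p = 0.0581), with 9.39% of all genes called. These comparisons share the agomelatine animals, and the dose of agomelatine was 40 mg/kg where the other drugs were given at 10 mg/kg. Its vehicle differed from theirs too, so drug, dose and vehicle cannot be told apart between agomelatine and another drug. Ordered by mean, fluoxetine and control (10.27 each), tianeptine (10.26), stress (10.25) and imipramine (10.17) were followed by agomelatine (9.92), and no neighbouring pair in that order passed the test. No other marker was called in these comparisons, and against control only 5 of the 9 means were lower with agomelatine, with a median difference of -0.05. Without agomelatine 3 that median was 0.04 and 4 of 9 means were lower.

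The repeat arrays of the control animals bear on Ntsr2. In each of the 3 animals Ntsr2 was lower on the repeat array than on the first, by -0.21, -0.25 and -0.14, a mean of -0.20. Of the 9 markers, 5, Aldh1l1, S100b, Ntsr2, Aldoc and Fgfr3, were lower on all 3 repeat arrays, as were 27.3% of all genes tested. The median difference, repeat minus first, was -0.097 over the 9 markers and -0.02 over all genes. With the repeat arrays alone, agomelatine against control was -0.25 for Ntsr2, the smallest difference over 29 alternatives. Of these, 27 called Ntsr2 against control, and adjusted p ran up to 0.0753. What moved between the arrays of an animal was not tested.

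**Figure D3:**
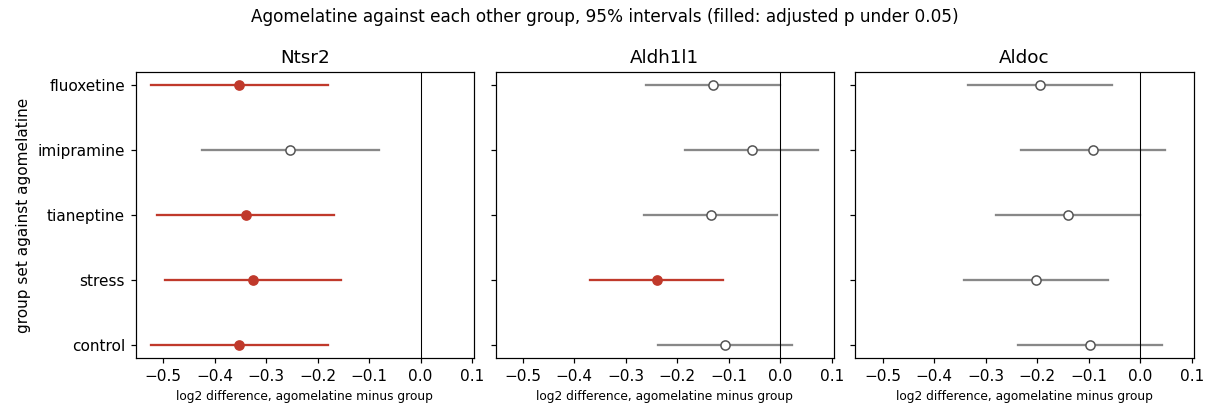
Log2 difference of agomelatine minus each other group (x axes) for Ntsr2, Aldh1l1 and Aldoc; lines are 95% intervals and filled points have an adjusted p under 0.05. Ntsr2 is filled against fluoxetine, tianeptine, stress and control, and Aldh1l1 against stress alone.

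Markers of other cell types differed strongly in the same animals. A list score is the mean deviation of the list's genes from their average over the 18 animals. Calls in each list stand beside 10.8% of all genes tested called in agomelatine against stress. All 11 measured oligodendrocyte genes rose with agomelatine against stress (median difference 0.56), and the score was 0.421 to 0.780 in agomelatine animals, against -0.168 to 0.042 in stressed animals. Of 7 granule neuron genes, 4 fell, with a median of -0.244, and the score was -0.353 to -0.192 with agomelatine, against -0.051 to 0.058 under stress. C1ql2, a synaptic protein of granule cells, fell by 0.55 and Smad3 by 0.38. Of 8 genes of CA pyramidal neurons 2 rose, Wfs1 by 0.76 and Man1a1 by 0.66. The score of that list was 0.076 to 0.538 with agomelatine. Under stress it was 0.586 in stress 3, and -0.187 and -0.158 in stress 1 and stress 2. All 6 choroid plexus genes measured had higher means (median 0.81) and none passed the test. Agomelatine 1 had a score of 3.21 and stress 1 of 0.788, while all other animals had negative scores. Of 12 endothelial and pericyte genes, Cldn5, a tight junction protein, fell by 0.36 ± 0.08 (SE, adjusted p = 0.0102), and the median of the list was 0.02. Of 7 radial glia and stem cell genes, Lpar1, a lysophosphatidic acid receptor that oligodendrocytes also make, rose by 0.58 ± 0.12 (SE, adjusted p = 0.00602), and the median was -0.05. None of 12 microglial genes, 7 oligodendrocyte precursor genes and 8 meningeal genes passed. The part of these shifts in the marker differences was not tested.

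**Figure D4:**
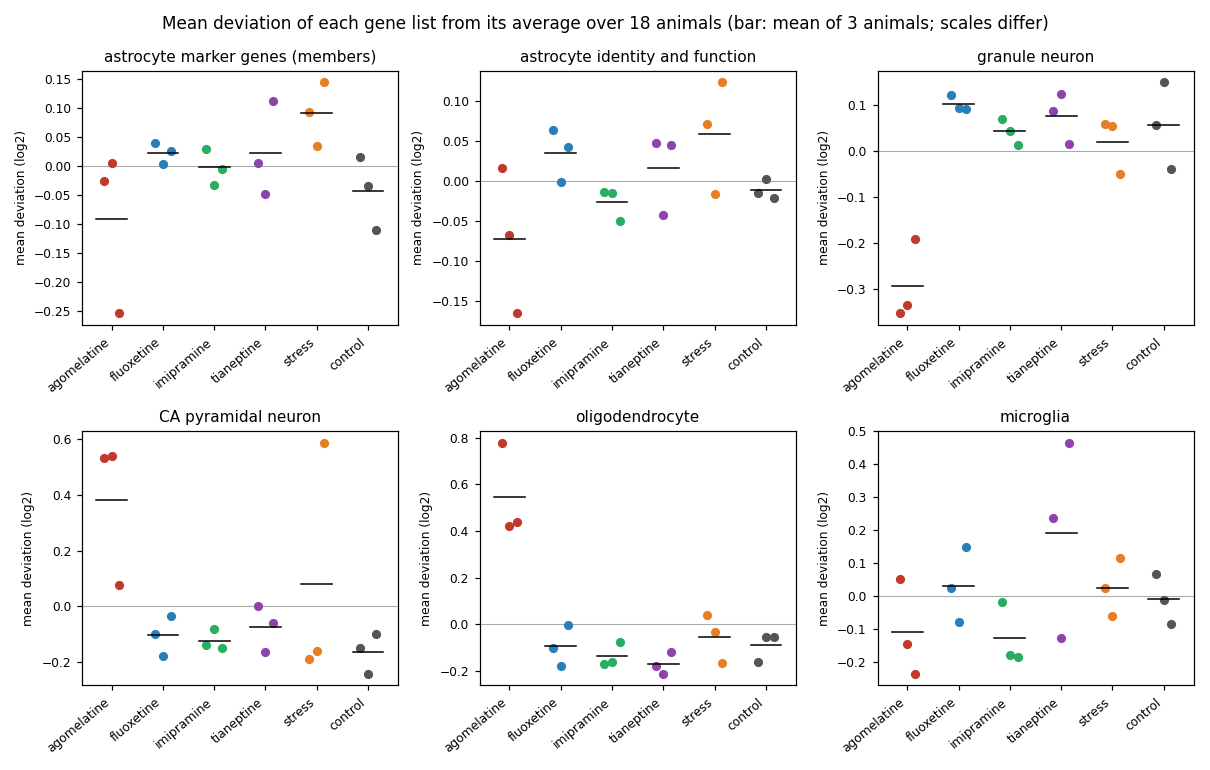
Mean deviation from the average over 18 animals, in log2 units (y axes, scales differ), of the 9 astrocyte markers and 5 other gene lists in each animal by group; bars are means of 3. The agomelatine animals lie highest for oligodendrocyte genes (0.421 to 0.780) and lowest for granule neuron genes (-0.353 to -0.192).

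Of 28 further genes of astrocyte identity and function, 25 were tested, 22 had lower means with agomelatine than under stress, and the median difference was -0.134. The share called over all genes tested, 10.8%, applies to this list and those after it as well. Of the 25 genes 3 fell: Slc25a18, a mitochondrial glutamate carrier, by 0.33 ± 0.06 (SE, adjusted p = 0.00246), Slc4a4, a bicarbonate cotransporter, by 0.22 ± 0.05 (SE, adjusted p = 0.0138), and Ndrg2, an astrocyte-enriched protein, by 0.21 ± 0.06 (SE, adjusted p = 0.0269). Slc25a18 read 10.12, 10.05 and 10.08 in agomelatine animals, against 10.38, 10.38 and 10.49 under stress, and it was also lower against the other 4 groups, with adjusted p = 0.0418 against control. Each agomelatine animal lay below every stressed animal. Of 7 genes of potassium, water and volume handling, Slc4a4 fell and Slc12a2, a chloride cotransporter, rose by 0.54 ± 0.13 (SE, adjusted p = 0.0147). Slc12a2 read 10.85, 10.07 and 10.18 with agomelatine, against 9.79, 9.76 and 9.91 under stress. Its highest value was in agomelatine 1, the animal with the choroid plexus score of 3.21, and the part of that tissue was not tested. Of 11 genes of glycogen and lactate supply, Gys1, a glycogen synthase, fell by 0.21 and Slc2a1, a glucose transporter, by 0.30. Of 16 regulators of glial fate, Fgfr2, another fibroblast growth factor receptor, rose by 0.30 ± 0.09 (SE, adjusted p = 0.0444) and Nfix, a transcription factor, fell by 0.19 ± 0.05 (SE, adjusted p = 0.0293). None of the 9 genes of glutamate uptake and recycling and none of the 19 reactive astrocyte genes passed, and the reactive list had a median of 0.075.

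No marker was called in stress against control. Of the 9 markers, 7 had higher means under stress, with a median of 0.13 against 0.023 over all genes. None passed, where 0% of all genes tested were called. Without control 3 the median was 0.083, and it was 0.077 with the first control arrays alone. Gjb6 read 10.06, 9.64 and 9.79 in stressed animals, against 9.53, 9.41 and 9.67 in control animals, a difference of 0.29 ± 0.11 (SE, adjusted p = 0.828). Gfap read 11.46, 11.62 and 11.55 under stress, against 11.29, 11.40 and 11.18 in control animals, where the groups did not overlap (difference 0.25 ± 0.13 SE, adjusted p = 0.828). Aldh1l1 was also without overlap, at 8.89 to 8.96 under stress, against 8.74 to 8.86 in control animals. These are 2 of 9, beside 8.02% of all genes. Aqp4 and Ntsr2 showed differences of -0.01 and -0.03.

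Aldh1l1 was highest under stress: its 3 animals (8.89 to 8.96) lay above all 15 others (up to 8.87), which 0.194% of all genes did for stress. This rests on averaging the control arrays, since the first array of control 1 read 8.92. Relative to stress, imipramine (8.74, 8.77 and 8.73) was lower by 0.18 ± 0.06 (SE, adjusted p = 0.459), and fluoxetine (8.87, 8.87 and 8.74) and tianeptine (8.79, 8.83 and 8.87) by 0.11 and 0.10. Each of the drug comparisons shares the stressed animals, and none of the 9 markers passed for the 3 drugs, where 0% of all genes were called. The means of all 9 markers were lower with imipramine than under stress (median -0.11), of 6 with fluoxetine (median -0.08) and of 6 with tianeptine (median -0.06). Markers without overlap and lower were 2 of 9 with fluoxetine (5.74% of all genes), 3 with imipramine (12.6%) and 2 with tianeptine (6.6%). Without stress 3 the medians were nearer 0, at -0.006 with fluoxetine, -0.070 with imipramine and -0.024 with tianeptine. The fluoxetine median was also -0.030 without fluoxetine 3 and -0.050 without stress 1, and the tianeptine median ran from -0.116 without tianeptine 3 to -0.030 without tianeptine 2. Against control, none of the 9 markers passed with the 3 drugs, where 0.0185% of genes were called with imipramine and 0% with fluoxetine and tianeptine. Between fluoxetine, imipramine and tianeptine none passed either, with 0% of all genes called.

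Gfap with tianeptine rested on 1 animal. It read 11.53, 11.37 and 12.08, against 11.46, 11.62 and 11.55 under stress and 11.29, 11.40 and 11.18 in control animals, and the mean of 11.66 ± 0.37 (SD, n = 3) came from tianeptine 3. That animal had the highest microglial score of all 18, at 0.465. C3, a complement gene of the reactive list, read 8.87, 8.20 and 7.96 with agomelatine, against 9.31, 8.80 and 9.14 with tianeptine. Its mean was highest with tianeptine, at 9.09. It was 8.34 with agomelatine, 8.45 under stress, 8.35 in control animals, 8.23 with fluoxetine and 8.13 with imipramine. The agomelatine and tianeptine groups overlapped, and C3 was lower with agomelatine than with tianeptine by 0.74 ± 0.19 (SE, adjusted p = 0.0153, where 13.5% of all genes were called). The reactive list as a whole, C3 included, was split in direction. Of its 19 genes 10 had higher means with agomelatine than with tianeptine and 9 lower, with a median of 0.04, and Emp1, a membrane protein, rose by 0.36 ± 0.12 (SE, adjusted p = 0.0473). Emp1 also rose with agomelatine against imipramine, by 0.41, and Gbp2, an interferon-induced GTPase, rose against fluoxetine by 0.27 and against imipramine by 0.28. That makes 1 of 19 reactive genes called against fluoxetine, beside 11.8% of all genes, and 2 of 19 against imipramine, beside 9.39%.

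Aqp4 averaged 12.20 ± 0.13 with agomelatine, 12.41 ± 0.11 with fluoxetine, 12.38 ± 0.10 with imipramine, 12.39 ± 0.06 with tianeptine, 12.38 ± 0.09 under stress and 12.39 ± 0.02 in control animals (SD, n = 3 each). The agomelatine mean was thus the lowest, by -0.17 to -0.21 on the log2 scale against the other 5 groups, and adjusted p was 0.0554 against fluoxetine, 0.0880 against tianeptine, 0.103 against control, 0.109 against stress and 0.125 against imipramine. The other 5 means of this water channel lay within the spread between animals.

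Aldoc averaged 12.61 ± 0.15 with agomelatine, 12.80 ± 0.03 with fluoxetine, 12.70 ± 0.05 with imipramine, 12.75 ± 0.09 with tianeptine, 12.81 ± 0.07 under stress and 12.70 ± 0.07 in control animals. Agomelatine against fluoxetine, without overlap, was -0.20 ± 0.07 (SE, adjusted p = 0.0640). S100b averaged 11.91 ± 0.15 with agomelatine, 12.02 ± 0.07 with fluoxetine, 11.91 ± 0.05 with imipramine, 11.98 ± 0.11 with tianeptine, 12.02 ± 0.02 under stress and 11.96 ± 0.06 in control animals. Imipramine (11.95, 11.86 and 11.92) did not overlap with stress (12.01, 12.00 and 12.04). That difference was -0.11 ± 0.07 (SE, adjusted p = 0.592).

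Both connexins had their highest mean under stress and their lowest in control animals, as Fgfr3 did. Gja1 averaged 11.55 ± 0.23 with agomelatine, 11.65 ± 0.02 with fluoxetine, 11.69 ± 0.12 with imipramine, 11.62 ± 0.02 with tianeptine, 11.73 ± 0.16 under stress and 11.54 ± 0.19 in control animals. Gjb6 averaged 9.74 ± 0.17 with agomelatine, 9.62 ± 0.03 with fluoxetine, 9.79 ± 0.19 with imipramine, 9.56 ± 0.07 with tianeptine, 9.83 ± 0.22 under stress and 9.54 ± 0.13 in control animals. Tianeptine (9.48, 9.61 and 9.60) did not overlap with stress (10.06, 9.64 and 9.79) for Gjb6, a difference of -0.27 ± 0.11 (SE, adjusted p = 0.943). Imipramine against control for Gjb6 was 0.25 ± 0.11 (SE, adjusted p = 0.574). Neither passed, and neighbouring groups in the order overlapped.

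Fgfr3 averaged 9.25 ± 0.15 with agomelatine, 9.31 ± 0.12 with fluoxetine, 9.23 ± 0.12 with imipramine, 9.22 ± 0.19 with tianeptine, 9.39 ± 0.12 under stress and 9.18 ± 0.16 in control animals. The range of the means was close to the spread within groups. Gfap averaged 11.36 ± 0.21 with agomelatine, 11.36 ± 0.07 with fluoxetine, 11.42 ± 0.01 with imipramine, 11.66 ± 0.37 with tianeptine, 11.54 ± 0.08 under stress and 11.29 ± 0.11 in control animals. For imipramine the 3 animals (11.43, 11.42 and 11.42) lay closer together than in any other group, and all lay below the stressed animals, as did the fluoxetine animals (11.28, 11.39 and 11.41).

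The markers varied together across animals only in part. Of 36 pairs, 34 had a Pearson correlation above 0 over the 18 animals, with a median of 0.42 and a range of -0.31 (Gjb6 and Ntsr2) to 0.85 (S100b and Aldoc). Within groups the median was 0.32. Aldoc had the highest correlation with the mean of the other markers (r = 0.90) and Gjb6 the lowest (r = 0.08). Without the 2 animals farthest from the median, r was 0.73 for Aldoc, -0.09 for Gjb6, 0.30 for Aldh1l1 (0.66 with all animals), 0.15 for Aqp4 (0.54 with all) and -0.23 for Ntsr2 (0.41 with all). Ntsr2 was then the lowest, so its correlation with the other markers rests on 2 animals. The animals share groups and arrays, so these are descriptions. The 5 genes outside the list most like the mean of the markers were Lfng (r = 0.94), a Notch glycosyltransferase, Mfge8 (0.87), Nme3 (0.86), Agtrap (0.86) and Fam219a (0.85), over 18 animals. Without the 2 animals farthest from the median of the score r was 0.84 for Lfng and 0.62 to 0.70 for the others.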

How the data were processed

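RNA of the dentate gyrus was column-purified with DNase, labelled with biotin and hybridised to Affymetrix arrays, per the labels' protocols. The authors deposited log2 values per probe set. The submitters' processing notes name RMA and Affymetrix Expression Console 1.2 for them. The supplied annotation table dates from 2016. Of 29214 probe sets, 15310 had 1 gene symbol, 323 several and 13581 none named here. Probe sets with 1 symbol and a mean at or above the 25th percentile (log2 7.17) were kept, and the highest-mean probe set stood for a gene, giving 10804 genes. The repeat arrays were averaged with the first. limma 3.58.1 in R 4.3.3 (lmFit, eBayes with trend) fitted 6 group means over 18 animals with 12 residual degrees of freedom, and adjusted each of 15 comparisons and the F test over all genes by Benjamini-Hochberg. The fit was tested on simulated data with the same spread in every group, so that test does not cover the larger spread with agomelatine.

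The members, the 15 other lists and the tests were chosen with earlier results of these data known. All members are named; of each other list up to 4 genes with the smallest F test p, and the 5 genes most like the mean of the members. Ldha and Smad3 were named outside this rule, with their values known. The members are 10 by name, of which 9 were measured. The labels give each group the numbers 1 to 3 but no shared animal, litter or day. Of 45 pairs of same-numbered animals, the correlation of their deviations from the group means ran from -0.30 to 0.29, and 10 were over 0.1, so the numbers were not taken to pair the samples. The labels call the 3 animals of a group biological replicates. Promoters are RefSeq windows on GRCr8, and all 10 members matched by symbol. Alternatives covered the control arrays, the filter, the probe set rule, scaling, weights, the groups fitted, the replicate block and each animal left out.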

Additional observations from a re-analysis of the deposited data

Results flagged for a closer look

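The difference between drugs was itself tested for Ntsr2, since the stressed animals cancel in it. Agomelatine against fluoxetine was -0.35 (adjusted p = 0.0101, 11.8% of all genes called) and agomelatine against tianeptine was -0.34 (adjusted p = 0.0113, 13.5% called). Agomelatine against imipramine missed the threshold, at -0.25 (adjusted p = 0.0581, 9.39% called). The agomelatine dose was 40 mg/kg and the others 10 mg/kg, and the comparisons share the agomelatine animals. Agomelatine was given in hydroxyethylcellulose and the others in water or saline, so drug, dose and vehicle cannot be told apart. The oligodendrocyte and granule neuron scores separated the agomelatine animals from those of every other group, imipramine included, and their part was not tested.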

How the results depend on the processing

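Members called among the 6 groups by the F test numbered 1, and 0 with all 21 arrays and the animal as a random block, without the filter, with array weights and without the trend; with each animal left out the count was 0 to 1. Members called in agomelatine against stress numbered 2, and 1 with equal array medians, 1 with array weights and 0 with only those groups fitted; with each animal left out it was 0 to 3. Under the replicate block 2 members were called in agomelatine against stress and 1 by the F test, as without it, and it changed no call in the F test or the 5 comparisons of drug with stress and stress with control. The median of the members in agomelatine against stress was -0.18 and ran from -0.23 (without agomelatine 2) to -0.071 (without agomelatine 3) with each animal left out. No called value changed sign in these comparisons. Aldoc passed in agomelatine against stress with the filter at the 50th percentile (adjusted p = 0.0431), quantile normalisation once more (0.0286) and without agomelatine 2 (0.0219). Ntsr2 was called in agomelatine against stress in 14 of 18 alternatives and Aldh1l1 in 13 of 18. Between agomelatine and each other group, Ntsr2 was called in 29 of 29 alternatives against fluoxetine and tianeptine, 27 against control and 5 against imipramine. These 29 include fits that left out an animal of a group not compared, and no fit of the compared groups alone. They are therefore not comparable with the 18 alternatives for agomelatine against stress. The causes of these changes were not tested. Leaving out an animal removes its values and also lowers the number of animals, and the 2 were not separated. Probe sets differ in brightness over background, which limits comparison between genes.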

Other observations

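Ldha, a lactate dehydrogenase subunit of the glycogen and lactate list, was singled out after its values were seen. It read 7.42 in fluoxetine 1, and 7.31 and 7.34 on the 2 arrays of control 2. The other 16 animals lay between 11.92 and 12.86. Both arrays of control 2 gave the low value. The 9 astrocyte markers of these 2 animals showed no such gap.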
